A study of Homo sapiens with 4 samples.

Results

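Genes with a LINC symbol and a 5-digit number are long intergenic noncoding RNA genes, and the 100 of them with the most RNA in H9 cells are described here. H9 is an established line of human embryonic stem cells. The 100 genes were chosen by measured level, as those with the highest mean RPM (reads of the gene divided by all reads counted in the library, times 1000000) over 4 libraries, among 1884 such genes in the deposited tables, with LINC00678 and LINC01108 left aside by the rule. Their levels are therefore a description with no test. Differences between libraries are described too, because each condition is 1 library and no difference has a replicate check.

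Long intergenic noncoding RNAs are transcribed by RNA polymerase II from their own promoters between protein-coding genes, and many are spliced and carry a poly(A) tail. A LINC symbol is given to a gene of this kind whose function is not known, so few of the genes below have a described role. Many such RNAs stay in the nucleus, and in human pluripotent cells some are transcribed from the terminal repeats of endogenous retroviruses.

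The study asked how the order of RT and tagmentation affects the RNA read when it is profiled together with histone marks. The paper reports no effect of this order on transcriptome profiles or sensitivity, and shows the correlation of transcriptomes and the number of genes. The 4 libraries were Pre, RNA only; Pre, RNA and DNA; Post, RNA only; and Post, RNA and DNA. In the Pre libraries RT came before Tn5 tagmentation and in the Post libraries after it, and the RNA and DNA libraries were made while DNA at H3K27me3 and H3K27ac was profiled in the same material. All 4 used H9 cells, from which nuclei were extracted and fixed with formaldehyde before RT of poly(A) RNA, and whether they came from separate cultures is not given in the sources used here.

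The total count was between 6368721 and 10089552 per library. In Post, RNA only, the 6 genes whose symbols begin with FP236383 or FP671120 took 34.8% of all counts, against 10.7% to 15.8% in the other 3 libraries, and the RPM of most genes was lower there. All 12 markers of pluripotent cells averaged 10 RPM or more, with a summed level of 2289 to 3194 RPM. The summed markers were at 2.87 to 4.27 RPM for mesoderm and 4.40 to 8.23 RPM for endoderm, with 0 of 5 at 10 RPM or more in each list. The 6 markers of naive pluripotent cells summed to 8.01 to 11.9 RPM, with 0 at 10 RPM or more. The 6 neural markers summed to 76.2 to 83.5 RPM. Of these, 3 averaged 10 RPM or more, and the means ran from 0.0267 RPM for SOX1 to 43.5 RPM for MAP2. The 6 markers of the fibroblast list summed to 159.5 to 230.8 RPM, with 2 at 10 RPM or more. Most of this sum came from THY1, a surface protein that pluripotent cells carry as well. Intervals below are 95% intervals, and they cover counting error only.

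Sequences around the annotated start of 4 of the genes are shown because they are the most abundant gene, a gene that was lower in both Post libraries, a gene that was highest in 1 library, and a gene that shares its start region with another of the 100. Each is 250 bases before to 50 bases after a RefSeq start, in GRCh38.p14, read 5′ to 3′ on the strand of the gene. Capitals mark CG pairs in the first 3, and in the last they mark the bases that also lie in the window of LINC02228 on the other strand. LINC01487 lies at chr3:155240695-155240994 on the plus strand, LINC00685 at chrX:318895-319194 on the plus strand, LINC02595 at chrX:45851441-45851740 on the minus strand and LINC02211 at chr5:25190703-25191002 on the plus strand.
LINC01487: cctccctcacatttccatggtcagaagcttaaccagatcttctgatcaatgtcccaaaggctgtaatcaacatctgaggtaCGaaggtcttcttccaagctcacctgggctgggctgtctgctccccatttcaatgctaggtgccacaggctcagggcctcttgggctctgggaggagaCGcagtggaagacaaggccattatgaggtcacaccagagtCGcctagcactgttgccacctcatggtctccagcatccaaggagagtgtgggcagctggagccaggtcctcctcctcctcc
LINC00685: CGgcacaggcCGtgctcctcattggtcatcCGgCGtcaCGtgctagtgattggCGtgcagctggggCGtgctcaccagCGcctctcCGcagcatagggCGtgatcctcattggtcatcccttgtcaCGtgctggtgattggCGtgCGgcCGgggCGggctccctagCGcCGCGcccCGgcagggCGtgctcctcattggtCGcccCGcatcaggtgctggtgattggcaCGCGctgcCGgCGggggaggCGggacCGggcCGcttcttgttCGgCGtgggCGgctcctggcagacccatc
LINC02595: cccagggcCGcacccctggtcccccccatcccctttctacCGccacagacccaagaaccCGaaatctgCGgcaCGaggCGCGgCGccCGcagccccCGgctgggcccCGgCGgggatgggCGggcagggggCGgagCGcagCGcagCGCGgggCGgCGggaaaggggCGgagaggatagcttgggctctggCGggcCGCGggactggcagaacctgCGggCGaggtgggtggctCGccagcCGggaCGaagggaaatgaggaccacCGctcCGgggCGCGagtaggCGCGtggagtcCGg
LINC02211: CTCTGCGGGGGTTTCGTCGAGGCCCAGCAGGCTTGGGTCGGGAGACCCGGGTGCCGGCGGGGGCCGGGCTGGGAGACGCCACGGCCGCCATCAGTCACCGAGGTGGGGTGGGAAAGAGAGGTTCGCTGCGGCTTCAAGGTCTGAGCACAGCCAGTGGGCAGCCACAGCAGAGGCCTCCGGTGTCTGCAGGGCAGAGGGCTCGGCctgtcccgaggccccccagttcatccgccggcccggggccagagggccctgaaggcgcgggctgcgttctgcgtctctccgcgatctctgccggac

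The window of LINC01487 holds few CG pairs and those of LINC00685 and LINC02595 hold many. Windows were found for 60 of the 100 genes, and their median GC content was 48.0%, from 28.7% to 78%, against 47.7% for 1673 other LINC-numbered genes and 58.7% for all 35097 RefSeq promoters. The median number of CG pairs was 5 in the windows of the 100, 4 in those of the other LINC-numbered genes and 14 in all promoters. The letters TATAAA, searched on both strands, were found in 13.3% of the windows, in 16.3% of those of the other LINC-numbered genes and in 11.5% of all promoters. The octamer ATGCAAAT, which POU factors such as POU5F1 bind, was found in 2 of the 60 windows, or 3.33%, in 2.63% of those of the other LINC-numbered genes and in 1.77% of all promoters. LINC02211 and LINC02228 run away from each other, with RefSeq starts 297 bases apart, and 204 bases belong to both windows. In GENCODE the same genes start further upstream and overlap by 3157 bases. LINC00685 starts in GENCODE at position 320990 of chromosome X, downstream of the window shown. LINC02228 is named here although it lies outside the rule for named genes, after its values had been seen.

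The most abundant of the 100 was LINC01487, on chromosome 3 near STRIT1, which encodes a small regulator of the calcium pump of muscle. LINC01487 was measured at 381.8 RPM in the Pre, RNA only library, 372.5 RPM in Pre, RNA and DNA, 395.7 RPM in the Post, RNA only library and 462.2 RPM in Post, RNA and DNA. In all 4 libraries it was above the second gene, LINC02315, with intervals that did not overlap. LINC02315, 457.6 kb from the neuronal adhesion gene LRFN5, was at 284.9, 291.6, 263.5 and 319.1 RPM in the same order of libraries. LINC01829 was at 300.5, 292.8, 204.4 and 257.6 RPM. In GENCODE it starts 658 bases from the DNA repair gene ETAA1 on the other strand and overlaps ETAA1, while its RefSeq window lies further inside LINC01829. LINC02523 was at 237.4, 246.7, 191.2 and 261.2 RPM and lies near HEY2, a transcription factor of the Notch pathway. LINC01572 was at 247.8, 257.4, 173.5 and 246.2 RPM. LINC01194, on the list of genes described in stem cells and 670.4 kb from CTNND2, was at 228.8, 223.0, 198.2 and 257.1 RPM. For these 5 genes below LINC01487, the lowest of the 4 values was that of Post, RNA only.

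The next genes by mean RPM were LINC01473, LINC01090, LINC02211, LINC02540, LINC01612, LINC02335, LINC01950, LINC01876, LINC01170, LINC00665, LINC00698, LINC00624, LINC01122 and LINC01515, from a mean of 193.4 RPM for LINC01473 to 84.1 RPM for LINC01515. Of the 19 neighbouring pairs among the first 20 genes, 2 had intervals that did not overlap in any library, LINC01487 above LINC02315 and LINC02211 above LINC02540. The order of the other neighbours did not hold beyond counting error in all 4 libraries. At the end of the list, LINC01006 had a mean of 18.1 RPM, LINC02389 of 17.9 RPM and LINC00649 of 17.7 RPM, and the first genes outside it were LINC01709 at 16.9 RPM, LINC02649 at 16.8 RPM and LINC02456 at 16.6 RPM. The step at the end of the list was thus small beside the counting error. Of all LINC-numbered genes 152 averaged 10 RPM or more, and of the 100 genes 40 had at least 50 RPM and 17 at least 100 RPM.

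The summed counts of the 100 genes came to 0.658% (RNA only) and 0.657% (RNA and DNA) of the total in the Pre libraries, and to 0.496% and 0.697% in the Post libraries. They held 67.6% to 70.6% of the counts of all LINC-numbered genes, and the 10 most abundant held 35.7% to 40.3% of the counts of the 100. For each gene the highest RPM was set over the lowest, and the median of this ratio was 1.5, from 1.14 for LINC01504 to 5.12 for LINC00106. For 50 genes it was under 1.5 and for 12 genes at least 2. The lowest library was Post, RNA only for 89 of the 100 genes, against 82.5% of all 11564 genes that averaged 10 RPM or more, and it is the library in which the FP236383 and FP671120 genes took the largest share. The highest library was Post, RNA and DNA for 58 genes, against 22.9% of all such genes.

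**Figure D1:**
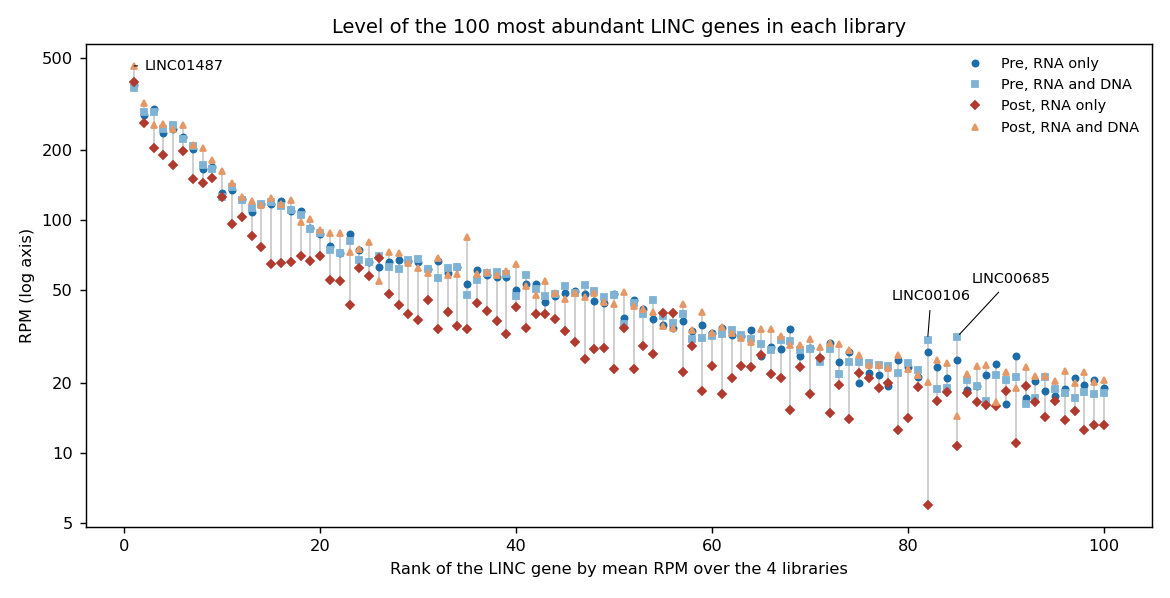
Level of each of the 100 LINC genes in RPM (log axis) against its rank by mean RPM, with 1 point for each of the 4 libraries and a grey line from the lowest to the highest. The Post, RNA only points (diamonds) lie lowest for 89 of the 100 genes, as for 82.5% of all genes, and the longest line is that of LINC00106, from 5.97 to 30.6 RPM.

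RPM is not divided by gene length, so levels were also compared per kilobase, among the 99 placed genes of the 100 alone. Per kilobase of gene from start to end, LINC00685 came first with 23.7 RPM per kb, followed by LINC01487 with 22.6 and LINC02595 with 12.1 RPM per kb. The place of LINC00685 rests on its GENCODE length of 0.862 kb. Its RefSeq start lies upstream of the GENCODE start, and a longer gene would have a lower value. Per kilobase of annotated exons, LINC02315 came first with 255.1 RPM per kb and LINC01487 second with 252.5 RPM per kb. Within the 100 genes, LINC01487 was thus first or second by RPM and on both per-kilobase scales. A choice per kilobase from all LINC-numbered genes would take other genes as well, as given with the gene lengths. Which annotation lies behind the counts, and whether reads in introns were counted, is not given in the sources used here.

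Of the 100 genes, 99 could be placed in GENCODE release 44, 95 by symbol and 4 through an older name, and all 99 are annotated as lncRNA. LINC02163 could not be placed. The 4 with another name today are LINC00894 (EOLA2-DT), LINC01578 (CHASERR), LINC01184 (SLC12A2-DT) and LINC01006 (RNF32-DT). The genes were long, with a median of 147.3 kb from start to end against 19.96 kb for 1769 other LINC-numbered genes with a count. At least 100 kb were spanned by 64 genes, or 64.6%, against 14.9% of the other LINC-numbered genes. The longest was LINC02055, with 1233 kb on chromosome 8, and the shortest LINC00685, with 0.862 kb on chromosome X. Exons were counted in the transcript of each gene that has the most. Their median number was 7 against 4, and none of the 99 had a single exon, against 42 of the other LINC-numbered genes. The 100 genes also have more annotated transcripts each, with a median of 10 against 3, and the part of this in the exon numbers was not tested. Annotated exons covered a median of 3.27% of the gene, against 9.70%. The choice by RPM, with no division by length, bears on these values: ranked per kilobase of gene, 44 of the 100 would be chosen, and per kilobase of exons 60.

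**Figure D2:**
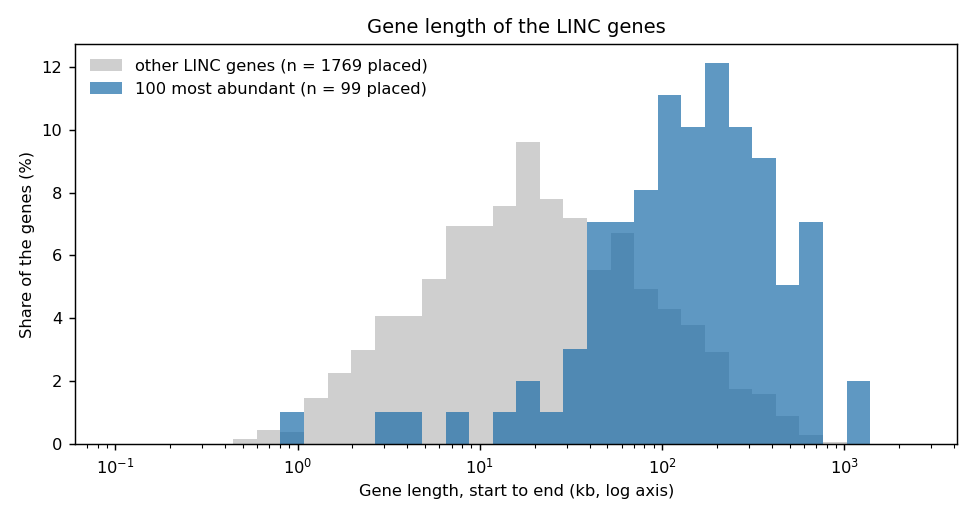
Gene length from start to end in kb (log axis) of the 99 placed genes among the 100 most abundant LINC genes (blue) and of 1769 other LINC genes with a count (grey), as shares of each group in percent. The blue bars lie to the right, with a median of 147.3 kb against 19.96 kb.

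By chromosome, 12 genes each lay on 2, 3 and 5, and 7 lay on X, or 7.07% of the placed genes against 1.3% of the other LINC-numbered genes. A protein-coding gene was overlapped by 23 genes, or 23.2%, against 6.61% of the other LINC-numbered genes. For 16 of them an overlapped gene lies on the other strand and for 8 on the same strand. The 100 genes are also longer, with a median of 147.3 kb against 19.96 kb, and the part of length in the share that overlaps was not tested. At least 100 kb separated 35 genes, or 35.4%, from the nearest protein-coding gene, against 36.7%. The most isolated was LINC02335 on chromosome 13, at 1979 kb from PRR20A. By GENCODE starts, which can differ from those of RefSeq, a protein-coding gene started within 1 kb on the opposite strand for 8 genes, or 8.08%, against 3.33%. Of 95 nearest protein-coding genes that are in the tables, 61 averaged 10 RPM or more, or 64.2%, against 58.9% for the other LINC-numbered genes.

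Among the 100 were 5 pairs of genes that overlap each other, all on opposite strands. LINC01829 had 8.74 to 11.6 times the RPM of LINC01828 over the 4 libraries. LINC02211 had 7.45 to 8.75 times the RPM of LINC02228. LINC00491 had 1.86 to 2.14 times that of LINC00492, LINC01967 1.19 to 1.34 times that of LINC01980, and LINC02253 1.02 to 1.12 times that of LINC02254. The first gene of each pair is by construction the one with the higher mean RPM, and its RPM was the higher one in all 4 libraries. For LINC02253 and LINC02254 the intervals overlapped in all 4 libraries, so that their order did not hold beyond counting error. Whether the counting used strand is not given in the sources used here, so reads of such pairs, and of the genes that overlap a protein-coding gene on the other strand, may not be separated. For the 8 genes that overlap a protein-coding gene on the same strand, the use of strand would not separate the reads either. LINC01578, which overlaps CHD2, and LINC01618, both named below for their ratios, are among these 8 genes. The pairs were named after their values had been seen.

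Transcripts of the 100 genes were also aligned to those of ESRG and LINC-ROR, noncoding genes of pluripotent cells whose transcripts derive from the HERV-H family of endogenous retroviruses. A sense alignment of at least 200 bases was found for 5 of 99 genes, or 5.05%, against 15 of 1769 other LINC-numbered genes, or 0.848%. LINC00665 aligned to LINC-ROR over 406 bases at 88.7% identity, LINC00882 to ESRG over 651 bases at 88.2%, LINC00458 to LINC-ROR over 418 bases at 90.2%, LINC02700 to LINC-ROR over 330 bases at 89.4% and LINC00836 to ESRG over 251 bases at 92.4%. This search was chosen after the data had been seen, and the 100 genes have more annotated transcripts each, with a median of 10 against 3, so that an alignment had more chances.

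To compare libraries, log2 ratios of RPM were taken after adding 1 RPM, and the median over all 11564 genes that averaged 10 RPM or more was subtracted to give a relative log2 ratio. That median was -0.44 for Post over Pre, RNA only, -0.09 for Post over Pre, RNA and DNA, 0.03 for RNA and DNA over RNA only in Pre and 0.38 for the same in Post. The scale with 1 RPM added understates changes of low genes. All 100 genes passed the filter. A gene was called where its relative ratio was at least 2-fold, and a second count used 1.5-fold. In bulk libraries, fewer cells with an RNA and less RNA per cell cannot be told apart.

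In Post over Pre, RNA only, the 100 genes were centred near the median of all genes, and 1 of them, LINC00106, was more than 2-fold lower. Their median relative log2 ratio was -0.02 against 0 for all genes, with 46 genes above it and 54 below. The median depended on which genes were centred on, and was -0.10 with a minimum mean of 1 RPM and -0.24 with no filter. None was called at least 2-fold higher, where 1.33% of all genes were, and 1 was called lower, where 0.0519% were. At 1.5-fold, 4 were higher, against 5.26% of all genes, and 5 were lower, against 2.01%. The spread was as wide as that of all genes, with an SD of 0.36 for both.

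LINC00106 lies in the pseudoautosomal region shared by chromosomes X and Y, near ASMTL. It was at 27.2 RPM in the Pre, RNA only library, 30.6 RPM in Pre, RNA and DNA, 5.97 RPM in the Post, RNA only library and 20.2 RPM in Post, RNA and DNA, from 255, 274, 38 and 204 counts. Post, RNA only stood below the other 3 libraries with no overlap of intervals. Post, RNA and DNA also stood below both Pre libraries with no overlap of intervals. Its relative log2 ratio between the orders was -1.58 for RNA only, with an interval of -2.28 to -1.25, and -0.48 for RNA and DNA, with an interval of -0.77 to -0.24. The first of these was the lowest among all 11564 genes. Its GC content of 58.5% was the highest of the 99 placed genes.

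LINC00685, in the same pseudoautosomal region near GTPBP6 and on the list of genes described in tumour growth, was likewise lower in both Post libraries. It was at 25.2 RPM in the Pre, RNA only library, 31.5 RPM in Pre, RNA and DNA, 10.7 RPM in the Post, RNA only library and 14.4 RPM in Post, RNA and DNA. Both Post values were below both Pre values, with no overlap of intervals between the orders. Its relative log2 ratio was -0.73 for RNA only, with an interval of -1.21 to -0.40, and -0.99 for RNA and DNA, with an interval of -1.34 to -0.74. Under other settings the first was as small as -0.56, which is under 1.5-fold. Both genes are annotated on X and on Y. For its scMTR-seq data the paper kept RNA reads only where they mapped uniquely. Whether the genome used for alignment held both copies is not given in the sources used here.

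The other genes past 1.5-fold in the RNA only pair were under 1.5-fold in the RNA and DNA pair, with the exception of LINC02006, and the difference between the pairs was not tested. LINC01578, known today as CHASERR, which lies upstream of CHD2 and limits its expression, was at 34.5 RPM in Pre, RNA only and 39.9 RPM in Post, RNA only, a relative log2 ratio of 0.64, against 0.02 in the RNA and DNA pair. LINC01322 had 0.62 and 0.19, and LINC01504 had 0.61 and -0.05. Among the lower genes, LINC01409 had -0.74 and -0.05, LINC00513 -0.68 and 0.04, and LINC02614 -0.61 and -0.03. LINC01409 lies near the start of chromosome 1, where its counts were 245, 189, 70 and 192 in the order of libraries used above. LINC02006 was higher in both pairs, with 17.2, 16.2, 19.5 and 23.4 RPM and relative log2 ratios of 0.61 and 0.60. Both are close to 1.5-fold, and under other settings they went down to 0.39 and 0.51, which is below it.

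In Post over Pre, RNA and DNA, most of the 100 genes had ratios slightly higher than the all-gene median. The median relative log2 ratio was 0.16, with 83 genes above that of all genes and 17 below, and the SD was 0.23. Above it too were 2166 of 2845 protein-coding genes of at least 100 kb, and 42 of 52 other LINC-numbered genes that averaged 10 RPM or more. Of 7030 shorter protein-coding genes 2608 were above it, and of the 100 most abundant antisense-named genes 58. With no filter on the genes centred on, the median was 0.08. None was called at 2-fold, where 0.156% of all genes were higher and 0.0951% lower. At 1.5-fold, 3 were higher, against 1.1% of all genes, and 1 was lower, LINC00685, against 2.02%. The largest ratio was that of LINC02595 on chromosome X, at 53.1, 47.7, 33.9 and 84.8 RPM in the order of libraries used above. Post, RNA and DNA was its highest library, with an interval of 79.3 to 90.7 RPM that lay above those of the other 3. Its relative log2 ratio was 0.91 in this pair, with an interval of 0.76 to 1.1, and -0.19 in the RNA only pair, with an interval of -0.45 to 0.02. LINC00922 had 0.59 here and 0.03 in the RNA only pair.

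**Figure D3:**
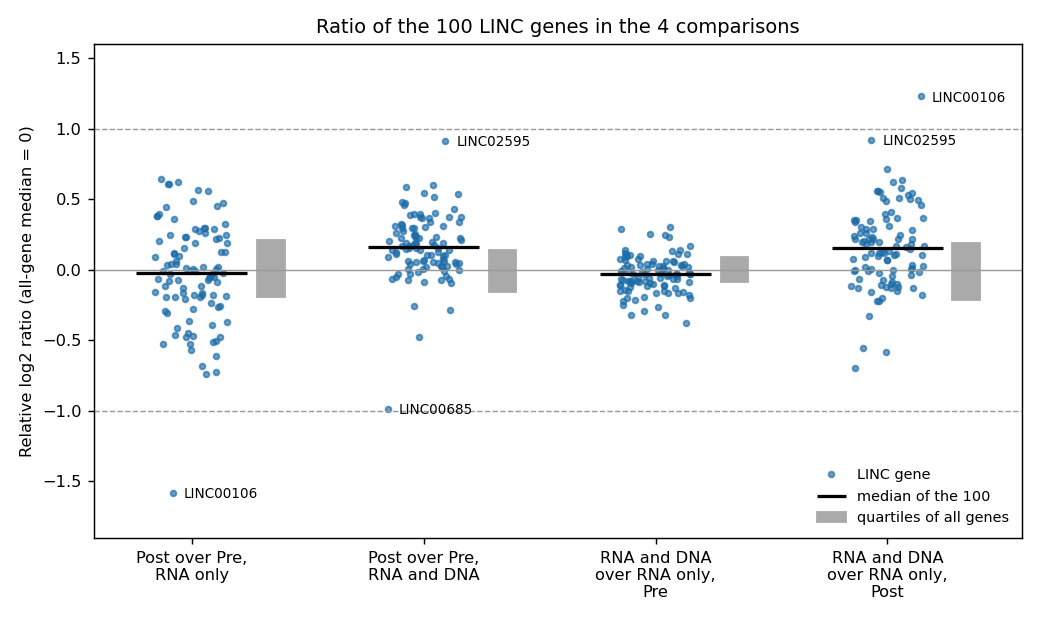
Relative log2 ratio of each of the 100 LINC genes in the 4 comparisons, with the median of the 100 as a black line, the range from the lower to the upper quartile of all genes as a grey bar and 2-fold as dashed lines. The black line lies at 0.16 in both comparisons that hold Post, RNA and DNA, and LINC00106 lies past 2-fold in both that hold Post, RNA only.

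Between RNA and DNA and RNA only in Pre, the 100 genes differed little. The median relative log2 ratio was -0.03, with 39 genes above 0 and 61 below, and the values ran from -0.38 for LINC00922 to 0.31 for LINC01322. None of the 100 was past 2-fold, where 0% of all genes were higher and 0.0173% lower, and none was past 1.5-fold, where 0.0605% were higher and 0.156% lower. The same comparison in Post had a median of 0.16, with 70 genes above 0 and 30 below, and a median of 0.29 with no filter and 0.10 with a minimum mean of 50 RPM. In it 1 gene was called at least 2-fold higher, where 0.0432% of all genes were, and none lower, where 2.32% were. At 1.5-fold, 5 were higher, against 1.34% of all genes, and 2 were lower, against 7.63%. The gene past 2-fold was again LINC00106, with a relative log2 ratio of 1.23 and an interval of 0.88 to 1.92. The ratio went down to 0.87 under other settings, and it rests on the same 38 counts in Post, RNA only as its low ratio in the RNA only pair. LINC02595 had 0.92, LINC01237 0.71, LINC01484 0.64 and LINC02641 0.62. LINC01618 had -0.69 and LINC01578 -0.59.

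The 2 pairs of Post over Pre share no library and can be set beside each other, gene by gene. Across the 100 genes the relative log2 ratios had a Pearson correlation of 0.37 and a Spearman correlation of 0.33, and without LINC00106 and LINC00685 they were 0.21 and 0.29. Across all 11564 genes the same values were 0.02 and -0.05, and across 2845 protein-coding genes of at least 100 kb 0.26 and 0.18. Across the 52 other LINC-numbered genes that averaged 10 RPM or more they were -0.06 and 0.05, and across the 100 antisense-named genes -0.15 and -0.04. Genes are not independent replicates, and the points share their libraries, depth and base composition. Of the 100 genes 44 were above the median of all genes in both pairs and 15 below it in both, while 39 were below it in the RNA only pair and above it in the other, and 2 the reverse.

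**Figure D4:**
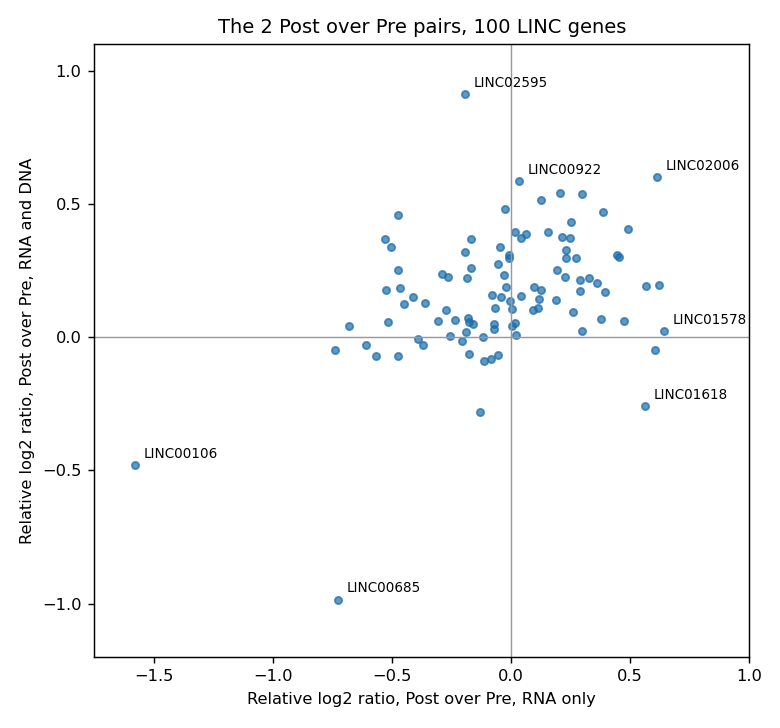
Relative log2 ratio of Post over Pre for RNA only (horizontal) and for RNA and DNA (vertical), with 1 point for each of the 100 LINC genes. LINC00106 and LINC00685 lie at the lower left, and LINC02006 lies to the right and above, at 0.61 and 0.60.

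GC content, which the choice of the genes did not use, went with the ratio in the RNA only pair. Across the 99 placed genes the Spearman correlation of GC content of the gene and relative log2 ratio was -0.58 for Post over Pre, RNA only, and -0.55 without LINC00106 and LINC00685. It was -0.12 for Post over Pre, RNA and DNA, -0.26 for RNA and DNA over RNA only in Pre and 0.53 for the same in Post, which holds the same Post, RNA only library. In the 33 genes of lowest GC content, 33.9% to 37.6%, the RNA only pair had a median relative log2 ratio of 0.12 and 22 genes were above 0. In the 33 genes of the middle range it was -0.02, with 15 above 0. In the 33 genes of highest GC content, 41.9% to 58.5%, it was -0.31, with 8 above 0. For RNA and DNA, the medians of the same 3 groups were 0.17, 0.19 and 0.12. Genes of high GC content were also shorter, with a median of 76.96 kb against 243.4 kb in the lowest group, and the part of length in this was not tested. The Spearman correlation of gene length and ratio across the 99 genes was 0.22 for Post over Pre, RNA only and 0.11 for RNA and DNA. Over all 10460 placed genes the correlations with length were -0.32 and 0.47. For Post over Pre, RNA only, the correlation with GC content was -0.15 over all 10460 placed genes, -0.08 over protein-coding genes under 100 kb and -0.61 over those of at least 100 kb. It was -0.42 over the 52 other LINC-numbered genes and -0.34 over the antisense-named genes. For RNA and DNA over RNA only in Post it was -0.01 over all placed genes and 0.53 over protein-coding genes of at least 100 kb. With the GC content of the promoter windows of 60 of the 100 genes in place of that of the gene, the correlation for Post over Pre, RNA only was -0.09.

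**Figure D5:**
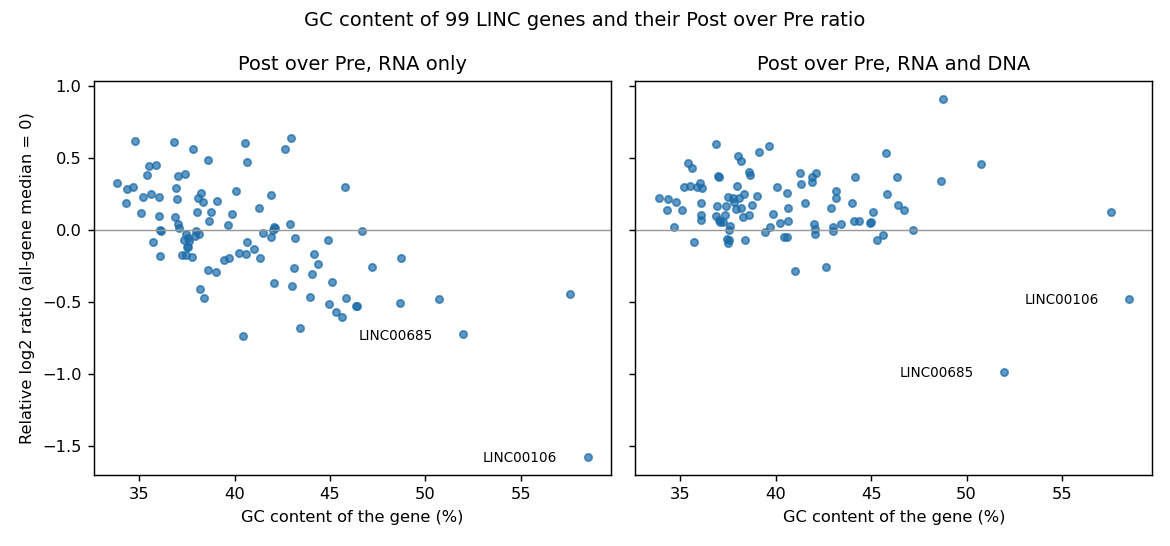
GC content of the gene in percent against the relative log2 ratio of Post over Pre for RNA only (left) and for RNA and DNA (right), with 1 point for each of 99 placed LINC genes. The points fall from left to right in the RNA only pair (Spearman -0.58), and less so in the RNA and DNA pair (-0.12).

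Like genes were described on the same scale. The 52 other LINC-numbered genes that averaged 10 RPM or more had a median relative log2 ratio of 0.15 in Post over Pre, RNA only and 0.21 in Post over Pre, RNA and DNA. The 100 most abundant genes named as antisense to another gene had -0.06 and 0.03. Protein-coding genes of at least 100 kb had -0.09 and 0.10, and 7030 shorter ones had 0.04 and -0.07. For RNA and DNA, the median of the 100 thus had the sign of that of long protein-coding genes, of the other LINC-numbered genes and of the antisense-named genes. For RNA only, the median of the 100 was -0.02, and that of the other LINC-numbered genes had the opposite sign. For 61 of the 100 genes the nearest protein-coding gene was measured at a mean of at least 10 RPM, and the Spearman correlation of the ratios of neighbours was 0.21 for Post over Pre, RNA only and 0.06 for Post over Pre, RNA and DNA.

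Few of the 100 genes are on lists of described LINC genes. Of 5 genes described in stem cells 4 are in the tables and 2 among the 100, LINC01194 and LINC00458. LINC00458, a noncoding gene known from human embryonic stem cells, was at 48.5, 52.1, 33.4 and 46.0 RPM in the order of libraries used above. Of 19 genes described in tumour growth 15 are in the tables and 7 among the 100. LINC00665 was at 121.6, 115.0, 65.3 and 117.5 RPM, LINC00662 at 65.9, 66.2, 57.6 and 80.5 RPM, and LINC01138 at 61.0, 55.2, 44.1 and 59.1 RPM. LINC00511 had a mean of 21.2 RPM and LINC00641 of 18.8 RPM. In these 6 genes Post, RNA only was the lowest library, as for most of the 100, while LINC01578 was highest there, and of the genes of both lists among the 100, LINC01578 and LINC00685 alone passed 1.5-fold in any of the 4 comparisons. None of 6 genes described in lineage choice, of which 4 are in the tables, was among the 100, and none of 6 that encode small proteins is in the tables under its LINC symbol.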

How the data were processed

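RNA was measured in 4 libraries of H9 cells, 1 per condition, with groups taken from the sample titles. The deposited tables give raw counts of reads per gene, after alignment to GRCh38 and removal of duplicates by the authors. The paper's processing of scMTR-seq data also left out reads that did not map uniquely. Among the tools in the submitters' processing notes are STAR 2.7.11b, Bowtie2 2.5.3, Bowtie 1.3.1, SAMtools and Trim Galore 0.6.10. The annotation, the use of strand and the counting of introns are not given in the sources used here, and 60 further barcode columns were not used.

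The tables hold 33640 genes, of which 11564 had a mean of at least 10 RPM. RPM intervals are exact Poisson intervals, and ratio intervals are exact conditional intervals without the added 1 RPM. Places, lengths and GC content come from GENCODE release 44, promoter windows from RefSeq, and transcripts were aligned with BLAST 2.17.0. The steps were tested on simulated data. Alternatives were TMM (edgeR 4.0.16) and median-of-ratios (DESeq2 1.42.0) scaling, other totals, filters, pseudocounts and folds, thinning, and other rankings. No test between conditions was run, since each condition is 1 library. An additive model of order and profiling, which would leave 1 residual degree of freedom, was not fitted.

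Named were the 20 most abundant genes, up to 10 called genes per direction, those ranked next to the end of the list, the longest and shortest, and those on lists of described genes. The 100 genes, the lists and the comparisons were chosen with earlier results of these data known. Scripts ran in R 4.3.3 and Python 3.11.15, with scipy 1.17.1, pandas 2.3.3, numpy 2.4.6 and matplotlib 3.10.9.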

Additional observations from a re-analysis of the deposited data

Results flagged for a closer look

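The relative log2 ratio of Post over Pre had opposite signs in the 2 pairs, with both intervals excluding 0, for 8 of the 100 genes. Each pair is 1 library against 1, so the difference between the pairs was not tested. The RNA only ratio minus the RNA and DNA ratio was -0.93 for LINC01237 (-0.48 and 0.46), -0.89 for LINC02641 (-0.53 and 0.37) and -0.84 for LINC01484 (-0.50 and 0.34). It was -0.57 for LINC00665 (-0.45 and 0.12), -0.56 for LINC01170 (-0.41 and 0.15), -0.53 for LINC00698 (-0.29 and 0.24) and -0.49 for LINC00342 (-0.26 and 0.23). In these 7 genes the ratio of the RNA only pair was the negative one. LINC01618 had the opposite pattern, with a difference of 0.82 (0.56 and -0.26). LINC00342 was named after its values had been seen.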

How the results depend on the processing

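The scaling by TMM or median-of-ratios, totals without the FP236383 and FP671120 genes, thinning to the smallest total and the median of protein-coding genes alone changed none of the counts of called genes and moved no median beyond the counting error of a gene. Plain RPM ratios, with no median subtracted, gave 6 lower genes and a median of -0.46 in Post over Pre, RNA only, 1 lower gene in Post over Pre, RNA and DNA, and 4 higher genes and a median of 0.53 in RNA and DNA over RNA only, Post. In Post over Pre, RNA and DNA, a minimum mean of 1 RPM, no filter and a pseudocount of 0.1 RPM each gave 1 lower gene. A minimum of 50 RPM, which keeps 40 genes, gave 0 lower genes in Post over Pre, RNA only and 0 higher in RNA and DNA over RNA only, Post, where no filter gave 2 and a pseudocount of 5 RPM gave 0. At 1.5-fold the counts were 4 higher and 5 lower in Post over Pre, RNA only, 3 and 1 in Post over Pre, RNA and DNA, and 5 and 2 in RNA and DNA over RNA only, Post. With no filter the medians were -0.24 and 0.08 in the Post over Pre comparisons, RNA only and RNA and DNA, and 0.29 in RNA and DNA over RNA only, Post. These shifts were smaller than the typical counting error of a single gene. That measure, also used above, is not an error of a median over 100 genes, so the medians are not shown to be unchanged. Ranking per kilobase of gene kept 44 of the 100 genes and per kilobase of exons 60. The causes were not tested. The relative log2 ratio of LINC00106 in the RNA only pair was between -1.80 and -1.17 over the settings other than plain ratios, and in RNA and DNA over RNA only, Post between 0.87 and 1.36. Over the same settings that of LINC00685 in the RNA only pair was between -0.94 and -0.56, and those of LINC02006 were between 0.39 and 0.63 in the RNA only pair and between 0.51 and 0.63 in the RNA and DNA pair, so that these 1.5-fold calls were lost under some settings. A joint fit of the 2 Post over Pre pairs was not run.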
